A study of Nasonia vitripennis with 7 samples.

Results

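In 268 of the 2307 places where the wasp protein Doublesex (DSX) enriched genomic DNA, a DSX site was listed, but more than 25 bases from the summit of the peak. These 268 peaks are described here. They were chosen by position alone: each listed site was assigned to the closest summit, and a peak was taken where the centre of its nearest site lay more than 25 bases from the summit. They made up 11.6% of all peaks (exact 95% binomial interval 10.3 to 13.0) and 30.7% (27.6 to 33.8) of the 874 peaks with a site. The other 606 peaks with a site had it within 25 bases of the summit and are called summit-centred below. The remaining 1433 peaks had no listed site.

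DSX acts near the bottom of the insect sex determination pathway as a transcription factor with a DM domain, and its transcripts are spliced differently in females and males. In Drosophila, where it is best known, DSX proteins pair up and hold a short, nearly palindromic DNA element, largely through the minor groove. In DAP-seq, a protein made in vitro pulls its targets out of sheared, naked genomic DNA, so chromatin and partner proteins play no part. Peaks are then called where reads pile up, and the summit is the base with the highest pile-up.

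The study enriched genomic DNA from whole bodies of Nasonia vitripennis, strain AsymCX, with DSX in 4 libraries and with luciferase, a control protein that does not interact with DNA, in 3 libraries. The DSX library names hold the letters F or M, which the labels do not explain. Neither the age nor the sex of the wasps was given in the sources used here, all groups share the same genotype, and the protein on the matrix is what separates them. The data analysed were 1 pooled peak list, with a summit and a strength per peak, and 1 pooled table of sites.

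Peak strength is the authors' −log10 of q (or of p; the list does not say which) for DSX against luciferase. Both files pool the libraries, so depth per library is unknown and replicate spread could not be computed. Peaks are not replicates, and site position, score and strength all come from the contrast that chose the peaks. The comparisons below are therefore descriptions with no test. Their 95% intervals (exact binomial for shares, order-statistic for medians) cover counting error only. Positions are on RefSeq scaffolds. Summits are counted from 1; site positions are printed as listed and could be off by 1 base. The labels and files name no genome build.

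The sites of the strongest of these peaks are printed first, because they are named below where strength is set beside site score. Each is read from left to right on the strand given, 5′ to 3′, and the capitals mark positions 3 to 9 of the 12 bases, where the DSX core lies.
NW_022279635.1:411457-411468, strand +: atACATTGTtta
NW_022279652.1:246869-246880, strand +: ttACAATGTtcg
NW_022279650.1:13776949-13776960, strand +: tgACATTGTttg
NW_022279600.1:846736-846747, strand +: ctACTTTGTatc
NW_022279652.1:340011-340022, strand -: aaACTTTGTtgc
NW_022279610.1:2381740-2381751, strand +: atACATTGGttc
The first 3 hold the core ACAATGT on 1 strand or the other, the next 2 hold the variant ACAAAGT, read here as ACTTTGT, and the last holds neither.

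The 5 sequences most often found at the nearest site of the 268 peaks are shown for comparison. They are the commonest of 141 different sequences, and most of them score above the median of 13.7 for the 268 nearest sites.
Held by 9 peaks, score 15.2: atACATTGTata
Held by 9 peaks, score 16.0: atACATTGTtta
Held by 7 peaks, score 15.8: ttACAATGTttc
Held by 6 peaks, score 13.7: aaACAATGTatc
Held by 6 peaks, score 15.7: atACATTGTatg
The score is the authors' measure of likeness to the motif they found under these peaks, and 18.45 is its highest value in the table. The strongest of the 268 peaks with each, in the order printed, had its summit at 22152800 of NW_022279642.1 (strength 18.0), 411387 of NW_022279635.1 (39.2), 4187578 of NW_022279611.1 (12.2), 307327 of NW_022279653.1 (11.3) and 523269 of NW_022279658.1 (16.1). Another sequence, atACATTGTtgc, was also held by 6 peaks and came after these in alphabetical order. The sequence with the highest score was less common here: atACATTGTttc stood at the nearest site of 5 of the 268 peaks (1.87%) and of 50 of the 606 summit-centred peaks (8.25%).

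The distances, which chose the peaks, are given as a description. The nearest site was a median of 42 bases from the summit (interval 40 to 45, quartiles 33 and 58), with a range from 26 to 170 bases. The distance was over 75 bases in 36 peaks and over 100 bases in 11. The site stood before the summit, at the lower coordinate, in 123 peaks and after it in 145. Read on the strand of the site, the summit followed the site in 137 of the 268 (51.1%, 45.0 to 57.2).

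The limit of 25 bases cut a continuous slope. Peaks with a site fell from 29.5 per position within 5 bases of the summit to 11.7 per position at 6 to 10 bases, and to 5.47 at 11 to 25 bases. Just past the limit, at 26 to 50 bases, there were 3.50 per position, and then 1.14 at 51 to 75 bases and 0.50 at 76 to 100 bases. No gap separated the peaks on either side of the limit. There were 11 peaks at exactly 26 bases, with strengths from 5.003 to 21.6 and a median of 7.05, and 9 peaks at exactly 25 bases, with strengths from 2.66 to 25.1 and a median of 8.22.

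**Figure D1:**
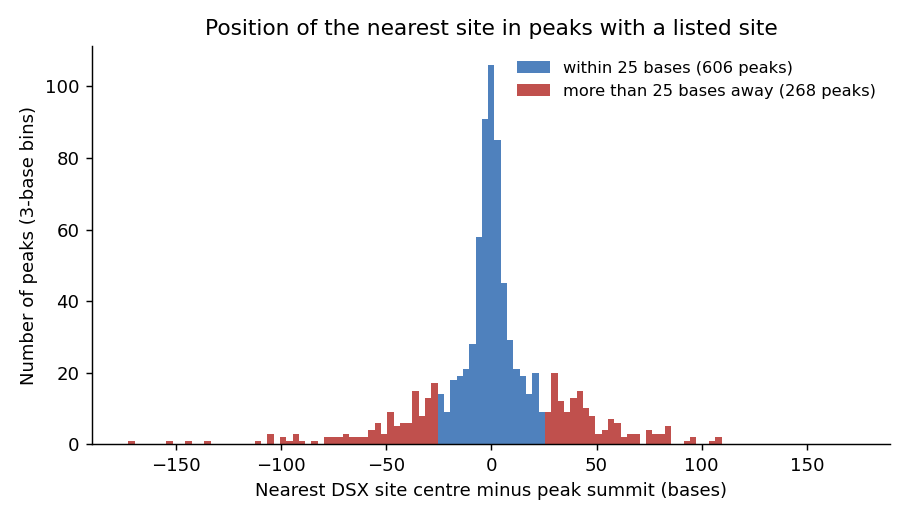
Signed distance in bases from the peak summit to the centre of the nearest listed DSX site (horizontal) against the number of peaks in bins of 3 bases (vertical), for the 874 peaks with a site. The 268 peaks in red form shoulders on both sides of the summit, 123 before it and 145 after it, that continue the slope of the 606 summit-centred peaks in blue.

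Peaks on both sides of the limit covered much the same strengths. At 26 bases from the site, the strongest was the summit at 1566681 of NW_022279643.1 (strength 21.6), followed by 3050041 of NW_022279634.1 (20.4), 11822749 of NW_022279611.1 (17.8), 381871 of NW_022279657.1 (11.6) and 2381130 of NW_022279629.1 (8.59). On the other side, at 25 bases, stood 19898703 of NW_022279642.1 (strength 25.1), 1686832 of NW_022279651.1 (20.4), 836342 of NW_022279594.1 (17.2), 5151179 of NW_022279611.1 (10.5) and 21139737 of NW_022279642.1 (8.22).

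The peaks with an away site had a lower median strength than the summit-centred ones and a higher one than the peaks with no site. Their strength had a median of 6.03 (5.20 to 6.67), quartiles at 3.86 and 8.72, and extremes at 2.01 and 39.2. Summit-centred peaks had a median of 8.61 (7.79 to 9.54) and reached 169, peaks with no site had a median of 4.52 (4.19 to 4.69) and reached 77.7, and all 2307 peaks had a median of 5.73, which lies inside the interval of the 268. A strength over 40 was found in 24 summit-centred peaks, in 16 peaks with no site and in 0 of the 268. A strength over 20 was found in 12 of the 268, in 70 of the 606 and in 96 of the 1433. The strengths were stepped: the 268 peaks took 175 different values, and 13 of them shared the value 5.20.

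Among peaks with a site, away sites made up a larger share in the weakest decile than in the strongest. In the weakest decile of the whole list (strength up to 2.56), 24 of the 40 peaks with a site had it more than 25 bases off, which is 60.0% (43.3 to 75.1). The share was 37.3% (28.2 to 47.0) in decile 5 and 14.8% (8.71 to 22.9) in decile 10, where 16 of 108 peaks with a site had it away. As a share of all peaks, with or without a site, the 268 were most frequent in the middle of the list, with 17.7% (13.0 to 23.3) in decile 5, against 8.39% (5.45 to 12.2) in decile 1 and 6.93% (4.01 to 11.004) in decile 10. Tied strengths make the deciles unequal, from 162 to 298 peaks.

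**Figure D2:**
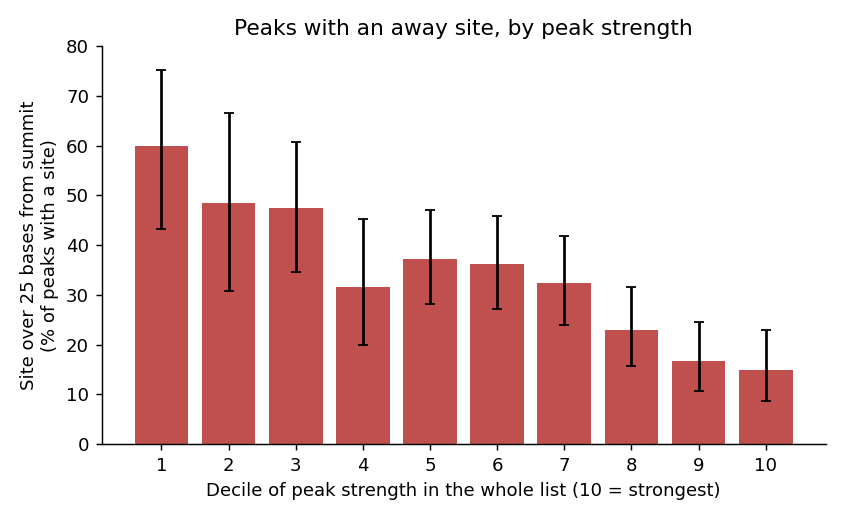
Decile of peak strength over all 2307 peaks (horizontal, 10 is the strongest) against the percentage of peaks with a listed site whose nearest site lies over 25 bases from the summit (vertical); error bars are exact 95% binomial intervals. The bars go from 60.0% in decile 1 to 14.8% in decile 10.

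Within the 268, the more distant sites went with lower strengths, though the intervals just met. Sites at 26 to 50 bases went with a median strength of 6.67 (5.80 to 7.42, 175 peaks), and sites beyond 50 bases with 4.97 (3.88 to 5.87, 93 peaks). The 11 peaks with a site beyond 100 bases had a median of 2.56 (2.10 to 4.02). On the near side of the limit, at 11 to 25 bases, the median was 6.73 (6.002 to 7.79), which overlaps that at 26 to 50 bases. Most of the step in strength lay closer in: peaks with a site within 5 bases had a median of 10.3 (9.04 to 11.04). Across the 268 peaks, Spearman's rho between strength and distance was -0.267. These peaks share the same pooled libraries, and the rho is given as a description.

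**Figure D3:**
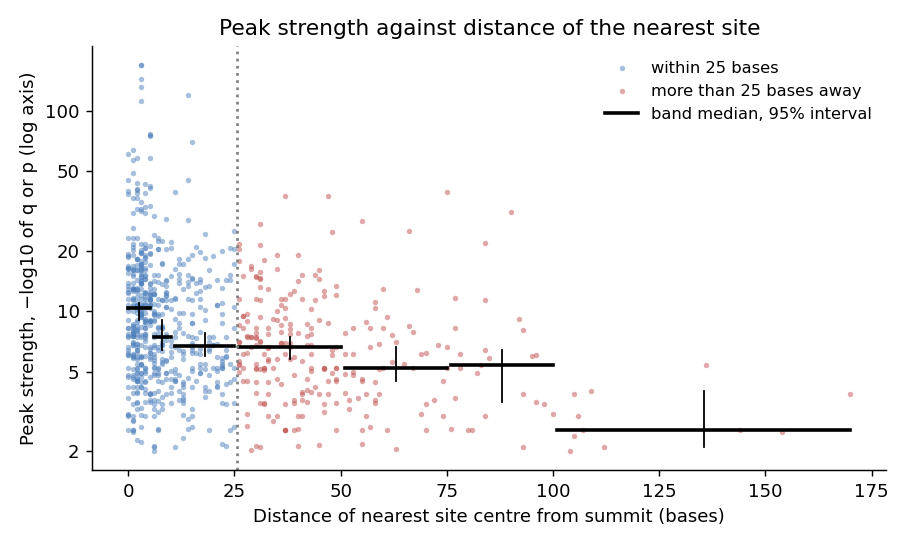
Distance in bases from the summit to the centre of the nearest site (horizontal) against peak strength, the authors' −log10 of q or p, on a log axis (vertical); each point is 1 of 874 peaks, black bars are medians per distance band with their 95% intervals, and the dotted line is the limit. The medians are 6.73 just inside the limit (11 to 25 bases) and 6.67 just outside it (26 to 50 bases), against 10.3 within 5 bases.

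Several of the strongest of the 268 held sites with low scores. The peak with its summit at 411387 of NW_022279635.1 had a strength of 39.2 and a site with a score of 16.0, the second of the common sequences printed above, 75 bases after the summit. The next, at 246921 of NW_022279652.1 (strength 37.6), had a site with a score of 10.45, 47 bases before the summit. Position 13776917 of NW_022279650.1 (strength 37.4) had a site with a score of 11.45, 37 bases after it. Both of these sites hold the exact core.

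Of the 10 strongest, 7 held the exact core, beside 78.0% of all 268. Position 846831 of NW_022279600.1 (strength 31.4) and position 340072 of NW_022279652.1 (strength 28.1) held the ACAAAGT form, 90 and 55 bases before the summit. Position 2381714 of NW_022279610.1 (strength 27.2) held the site printed last of the strongest, with a score of 9.70, 31 bases after the summit. The others were 591285 of NW_022279591.1 (strength 25.02, site 66 bases after), 4017537 of NW_022279608.1 (24.8, 48 bases before), 1778218 of NW_022279624.1 (21.9, 84 bases after) and 1566681 of NW_022279643.1 (21.6, 26 bases before).

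Of the 10 strongest, 7 had a nearest site that scored below the median of the 268, whereas 2 of the 10 strongest summit-centred peaks had one below the median of their own set. In the 12 peaks with a strength over 20 the median score was 12.5 (11.15 to 15.3), and in the 70 summit-centred peaks over 20 it was 16.2 (15.7 to 17.2). In the 55 peaks over 10 the median score was 14.2 (13.3 to 15.3), with 23 below the median of the 268. Sites that matched the motif on both strands were nearest in 4 of those 12 and in 56 of those 70.

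The best-scoring sites away from a summit stood in peaks on both sides of the median strength of the 268. The top sequence, atACATTGTttc, stood 43 bases after the summit at 479738 of NW_022279620.1 (strength 10.3), 56 bases after that at 350255 of NW_022279639.1 (8.81) and 49 bases after that at 19678003 of NW_022279642.1 (6.67). It stood 43 bases before the summit at 18931792 of NW_022279642.1 (5.02) and 39 bases after that at 3618465 of NW_022279649.1 (3.49). These 5 strengths had a median of 6.67. The 50 summit-centred peaks with the same sequence ran from 4.02 to 131 with a median of 14.6, so the ranges overlapped, and the lowest away peak lay under the lowest summit-centred one.

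Site score and peak strength were loosely tied in the 268 peaks. Spearman's rho was 0.186 and Pearson's r 0.0496 across these peaks, against 0.334 and 0.178 across the 606 summit-centred ones, both given as descriptions of peaks from the same libraries. When all 874 peaks were put into 4 classes of about equal size by the score of the nearest site, the away peaks had medians of 5.16 (4.19 to 6.004), 6.67 (5.63 to 7.55), 6.67 (5.20 to 7.89) and 6.87 (5.02 to 9.12), from the lowest scores to the highest. The summit-centred peaks had 6.36 (5.80 to 7.51), 6.67 (5.96 to 7.42), 10.5 (8.42 to 11.6) and 11.7 (10.7 to 13.7). The intervals of the 2 sets overlapped in the lower 2 classes and stood apart in the upper 2. The gap in medians was widest in the upper 2 classes and smaller in the lowest (5.16 against 6.36). In the class above the lowest the medians were equal, at 6.67. Away peaks made up 46.1% (39.5 to 52.8) of the lowest class and 16.2% (11.5 to 21.9) of the highest.

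**Figure D4:**
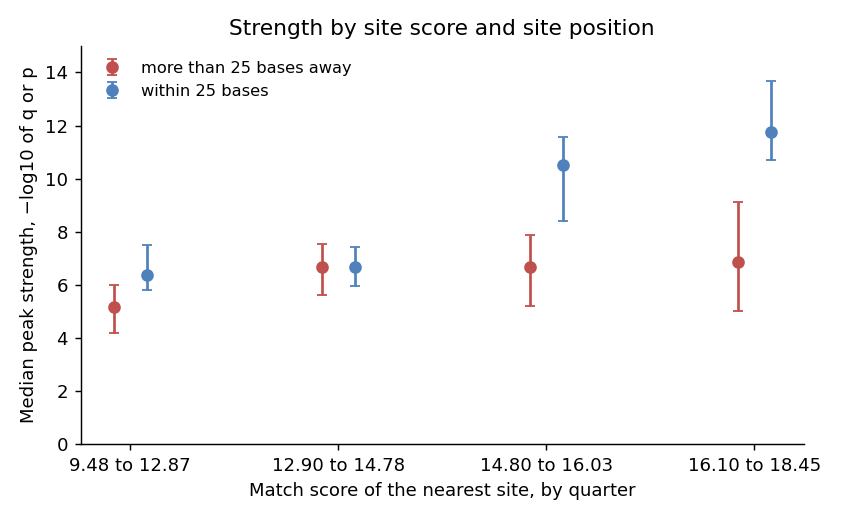
Match score of the nearest site, in 4 classes of about equal size (horizontal), against median peak strength, the authors' −log10 of q or p (vertical), with order-statistic 95% intervals. Red points are the 268 peaks with an away site and stay between 5.16 and 6.87; blue points are the 606 summit-centred peaks and reach 11.7 in the class with the highest scores.

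The same 12 bases could stand at a summit in one peak and away from it in another. The nearest sites of the 268 peaks were of 141 different sequences and those of the summit-centred peaks of 168, and 78 sequences were found in both sets, 55.3% of the first list and 46.4% of the second. Of these 78, the summit-centred peaks had the higher median strength in 54 and the away peaks in 24. Many of them rest on a single peak. Among the 16 with at least 4 peaks on each side, the summit-centred peaks were the higher in 13.

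Single sequences showed both patterns. The sequence atACATTGTtgc had the higher median at the summit: its 6 away peaks had strengths from 2.56 to 19.2 and a median of 8.24, and its 17 summit-centred peaks went from 5.05 to 39.4 with a median of 13.8. For atACAATGTtgc the medians were 7.93 over 4 away peaks and 18.6 over 17 summit-centred ones, with ranges of 3.86 to 20.4 and 2.32 to 36.6. By contrast atACATTGTtta had medians of 9.37 over 9 away peaks and 9.58 over 16 summit-centred peaks. For aaACAATGTatc the away peaks were the higher, with a median of 6.68 over 6 peaks against 5.54 over 5. All of these ranges overlapped between the sets.

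The 81 peaks whose sequence did not recur at a summit-centred site held weak matches, with a median score of 11.7, against 14.8 in the 187 that shared theirs. Their median strengths were 5.20 and 6.12.

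Away sites departed from the exact core more often than summit-centred ones. The exact core ACAATGT was present, on either strand, in 209 of the 268 nearest sites (78.0%, 72.5 to 82.8) and in 534 of the 606 (88.1%, 85.3 to 90.6). The variant ACAAAGT made up 51 (19.0%, 14.5 to 24.2) and 62 (10.2%, 7.93 to 12.9), and ACATAGT made up 5 and 8. The median score of the nearest site was 13.7 (13.35 to 14.3) away from the summit and 15.2 (14.8 to 15.4) at it. The share with the core was 92.0% within 5 bases, 82.3% at 11 to 25 bases, 80% at 26 to 50 bases and 75.4% at 51 to 75 bases.

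A further 3 away peaks had none of these core forms, and their sites are printed because each departs from the motif inside the core.
NW_022279610.1:2381740-2381751, strand +: atACATTGGttc
NW_022279656.1:817436-817447, strand +: atACATTGAttc
NW_022279650.1:4004399-4004410, strand -: atACACTGTatc
The first belongs to a peak of strength 27.2. The second lay 136 bases before a summit of strength 5.42, at 817577, and the third 52 bases before one of strength 3.25, at 4004457. These sites were listed on 1 strand only and had scores of 9.70, 10.4 and 10.7. The third was named after its values were seen.

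Fewer of the away sites read as a match in both directions. The nearest site was listed on both strands in 114 of the 268 (42.5%, 36.5 to 48.7) and in 389 of the 606 (64.2%, 60.2 to 68.0). By distance the share was 69.8% within 5 bases, 48.0% at 26 to 50 bases and 20% (6.83 to 40.7) at 76 to 100 bases. Within the 268, sites on both strands had a median score of 15.2 and sites on 1 strand 12.6, and the median strengths were 6.47 (5.63 to 7.08) and 5.44 (4.97 to 6.18).

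Base by base, counted from position 1 at the left end on the better-scoring strand, the away sites had A at position 1 in 59.7% (53.6 to 65.6) against 69.1% (65.3 to 72.8), and A at position 5 in 80.97% (75.8 to 85.5) against 89.4% (86.7 to 91.8). C at position 12 was present in 42.9% (36.9 to 49.1) against 50.99% (46.9 to 55.0). T at position 5 stood at 19.0% against 10.6%. The letters at positions 3 and 8 were A and G in all 268. The intervals stood apart at position 5 and overlapped at positions 1 and 12.

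The away peaks that held the ACAAAGT form had a median strength of 5.20 (4.48 to 6.12) over 51 peaks, against 6.12 (5.59 to 7.04) over the 209 with the exact core, and the 2 intervals overlapped. Their sites lay at similar distances, medians of 44 (40 to 51) and 41 (39 to 45) bases.

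The sites farthest from a summit belonged to weak peaks. The farthest, a site of the ACAAAGT form with the sequence atACTTTGTtta, lay 170 bases before the summit at 9813202 of NW_022279606.1 (strength 3.86). Next came sites 154 bases before 1133139 of NW_022279617.1 (2.49), 144 before 11913888 of NW_022279611.1 (2.56), 136 before 817577 of NW_022279656.1 (5.42) and 112 before 9821990 of NW_022279650.1 (2.10). The others of the 10 lay 109 bases after 1843373 of NW_022279593.1 (4.02), 107 after 21162397 of NW_022279642.1 (2.56), 106 after 556115 of NW_022279604.1 (3.00), 105 before 14589713 of NW_022279606.1 (3.86) and 105 before 1412421 of NW_022279638.1 (2.38). None of these 10 was above the median strength of the whole list. The last of them held atACATTGTtta, the same 12 bases as the strongest of all 268 peaks.

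Most of the 268 peaks had a single site, and 13 had 2 or more (4.85%, 2.61 to 8.15), against 50 of the 606 (8.25%, 6.19 to 10.7). The 13 had a median strength of 9.12 (5.80 to 16.2), and the 255 with 1 site had 5.80 (5.20 to 6.41). In 8 of the 13 the summit lay between sites, and in the other 5 all sites were on the same side. In 5 of the 13 the site nearest to the summit was not the best-scoring one.

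Summits that fell between sites are best seen in a pair of peaks that carry the same sites at the same spacing on different scaffolds. The sites are printed with the summit they surround.
Before 1566681 by 26 bases, NW_022279643.1:1566650-1566661, strand +: ttACATTGTtca
After 1566681 by 82 bases, NW_022279643.1:1566758-1566769, strand +: ttACATTGTatt
Before 562549 by 59 bases, NW_022279630.1:562485-562496, strand +: ttACATTGTtca
After 562549 by 49 bases, NW_022279630.1:562593-562604, strand +: ttACATTGTatt
The centres were 108 bases apart in both, and the first site scored 11.15 and the second 14.2. The peak strengths were 21.6 and 13.4. The summits stood at different points between the sites, and the nearest site was the weaker match in the first peak and the better match in the second.

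The peak with the most sites was at 11822749 of NW_022279611.1 (strength 17.8), with 3 sites 38 and 26 bases before the summit and 169 bases after it. At 133405 of NW_022279630.1 (strength 11.6) the sites lay 45 bases before and 36 after the summit, with equal scores of 13.55. At 3143548 of NW_022279649.1 (strength 9.12) a site with a score of 17.0 lay 34 bases before the summit and one with a score of 9.70 lay 79 bases after it. At 3522926 of NW_022279592.1 (strength 7.73) the better site, with a score of 17.4, lay 109 bases before the summit, and a match with a score of 9.92 lay 38 bases after it.

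Sites on 1 side only were found at 1537181 of NW_022279614.1 (strength 16.2), where atACATTGTtta occurred 65 and 29 bases before the summit, and at 2708358 of NW_022279651.1 (strength 14.98), where sites lay 41 and 30 bases before it. At 2128662 of NW_022279629.1 (strength 8.06), atACAATGTtgg lay on opposite strands 93 and 122 bases after the summit. At 97449 of NW_022279596.1 (strength 7.44) the sites lay 29 and 69 bases after it.

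Copies of 1 sequence near each other gave the closest comparison of away and summit-centred sites in this list. Of the 268 peaks, 10, on 5 scaffolds, had another peak within 20 kb that held the same 12 bases as their nearest site. That other peak was not always summit-centred. The largest group was a run of 11 sites in 10 peaks on NW_022279624.1, between 1233913 and 1259223. The strongest and the weakest of these peaks have these as their nearest sites, and the strongest also holds another copy.
Summit 1234741, strength 74.5, NW_022279624.1:1234740-1234751, strand -: atACATTGTatg
Summit 1255839, strength 3.68, NW_022279624.1:1255887-1255898, strand -: atACATTGTatg
The 12 bases, the strand and the listing on both strands were the same at all 11 sites.

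In that run 4 peaks had their site away from the summit, and all 4 had it after the summit. Their summits were at 1242762 (site 33 bases after, strength 6.53), 1246088 (32 bases, 5.103), 1254399 (39 bases, 5.92) and 1255839 (54 bases, 3.68). The 6 summit-centred peaks of the run had strengths from 12.1 to 74.5, so the 2 sets did not overlap in strength. Steps between neighbouring copies recurred: the centres were 1455 bases apart in 3 steps and 1870 bases apart in 2 steps. The settings by which reads from such copies were aligned are not stated, and their part in these strengths was not tested.

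A run of 6 sites on NW_022279591.1, between 4642104 and 4679499, held 2 away peaks and 4 summit-centred ones, all with ttACATTGTatg on the + strand. The site of the away peak at 4652664 was listed on 1 strand only, and the others of the run on both. The away summits, at 4652664 (site 93 bases before, strength 3.88) and 4654952 (104 bases before, strength 2.01), lay within or below the range of the other 4, which went from 2.86 to 8.95. Here the sets overlapped.

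Another group stood around a strong summit-centred peak. On NW_022279617.1, the away peaks at 3023687 (strength 2.67, site 28 bases after the summit) and at 3024373 (strength 4.07, site 42 bases after) both held ttACAATGTtga, and between them stood a summit-centred peak at 3024064 with a strength of 48.7. The nearest site of that summit-centred peak was another sequence, with a score of 9.72 against 12.4 for ttACAATGTtga. These away peaks were copies of each other only. The away peak at 2708358 of NW_022279651.1 lay 386 bases from a summit-centred peak of strength 168, at 2707972, and the nearest site of the away peak was again ttACAATGTtga. The nearest site of the stronger peak was not ttACAATGTtga and had a score of 17.2. The away peak also held the site atACAATGTttc, 41 bases before its summit, with the same score of 17.2. In all, 41 of the 268 (15.3%, 11.2 to 20.2) had another summit within 5 kb, against 71 of the 606 (11.7%, 9.26 to 14.5), and the intervals overlapped. Of the 8 with another summit within 1 kb, 6 had a stronger neighbour, which for 3023687 and 3024373 was the same peak, at 3024064. Stronger neighbours were not counted for the 14 summit-centred peaks with another summit that close.

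The 268 peaks were spread over 55 of the 66 scaffolds with any listed site. The most, 20 each, were on NW_022279606.1 and NW_022279642.1, where they made up 25.97% (16.6 to 37.2) and 25.3% (16.2 to 36.4) of the peaks with a site. Over the 17 scaffolds with at least 15 such peaks, the share went from 17.2% on NW_022279634.1 (5 of 29) to 62.5% on NW_022279652.1 (10 of 16, 35.4 to 84.8), with a median of 30.9%. The scaffold with the highest share also held 2 of the 5 strongest of the 268.

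The lower strength of away peaks was found on each of the 8 scaffolds that held at least 10 of them, with 122 of the 268 in all. Their median strengths went from 4.70 to 7.55 over these scaffolds, and those of the summit-centred peaks from 7.12 to 11.2. On NW_022279606.1 the away peaks went from 2.55 to 8.22 with a median of 4.70, and the summit-centred ones had a median of 8.71. On scaffolds with fewer away peaks the order was mixed. On NW_022279603.1, 6 away peaks had a median of 8.93 and the summit-centred ones 6.43. The order was also turned on NW_022279588.1 (10.7 against 6.80), NW_022279646.1 (11.3 against 8.23), NW_022279612.1 (9.53 against 4.65) and several others. It held on others again, such as NW_022279617.1 (4.24 against 12.4).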

How the data were processed

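The peak list of 2307 single-base summits and the site table were made by the authors from 4 DSX and 3 luciferase libraries, pooled. Per the submitters' processing notes, the tools were cutadapt, bedtools 2.28.0, MACS2 2.2.5 and Bowtie2 2.3.5.1; settings are not given. The deposited strength is the −log10 of a q or p, and the list does not say which. The deposited site table holds 1485 matches from FIMO 5.1.0, each with a score and a p-value per the file headers. Whether its positions count from 0 or 1 is not given, so distances could be off by 1 base.

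Matches sharing a scaffold and a core centre were joined to 1 site (952 sites, 533 on both strands), read on the better-scoring strand. The joining and the intervals were tested on simulated data. The members, lists and comparisons were chosen with earlier results of these data known. Peaks were named by rule: the 10 strongest, 10 farthest and 10 with most sites, those at the limit, the 5 best scores and the commonest sequences. Both the sequences compared between sets and the recurring copies were chosen after their values were seen. No gene could be assigned, because the gene table used here shares no scaffold names with the peaks. Software was matplotlib 3.10.9, scipy 1.17.1, pandas 2.3.3 and numpy 2.4.6 under python 3.11.15.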

Additional observations from a re-analysis of the deposited data

How the results depend on the processing

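Of 55 values recomputed under 8 alternatives, 39 stayed within the interval of the value reported, or within 1.5 times its count, 16 moved and 0 changed sign. Counts and shares cannot change sign, so the 0 speaks only for the differences in median strength and median best score. One alternative, site positions moved up by 1 base, was chosen after the data were seen and moved none. With a limit of 15 bases the share of peaks with a site that lay away was 41.0%. With a limit of 50 bases there were 93 away peaks, 10.6% of those with a site; the difference in median best score from summit-centred peaks was -2.10, 32.3% had a nearest site on both strands, and 1.08% had 2 or more sites. Among peaks at or above the median strength of the list, 140 were away (24.4%), and 82.9% of them held the core. With sites at or above the median score only, 114 peaks were away (24.3%), the difference in median strength was -3.94 and that in median best score -0.30, 92.1% held the core, 60.5% had a site on both strands, and 0.877% had 2 or more sites. These moves follow in part from the narrower definitions. Peaks with 1 site, away sites within 100 bases, and the list without the runs moved no value; the number with 2 or more sites cannot be given among peaks with 1 site. No paired analysis was possible because both files pool the libraries. Depth is unknown.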

Other observations

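The site table reached farther than the 268 peaks did. Of the 952 distinct sites, 15 lay more than 170 bases from their nearest summit, and the farthest lay 358 bases off. All 15 were in peaks that had another site closer to the summit. In the 449 sites within 10 bases of a summit, the mean signed distance was -0.0935 bases and the median 0.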
